A study of Homo sapiens with 8 samples.

Results

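The DNA methyltransferases and UHRF proteins were followed as a set of 6 genes, *DNMT1*, *DNMT3A*, *DNMT3B*, *DNMT3L*, *UHRF1* and *UHRF2*, taken as every probe that is not a control and carries 1 of these gene names in the array files. This gave 11 of 50599 distinct probes and 6 of 36337 gene names. Expression was measured on one-color arrays in 4 clones derived from the colorectal cancer line HCT116, which is human. The control clones CONT1 and CONT2 carried a plasmid for EmGFP and a negative control miRNA, whereas the knockdown clones TET1-KD1 and TET1-KD2 carried the same kind of plasmid with artificial miRNAs against *TET1*, a different miRNA in each clone. All 4 clones were selected with G418, and each was analyzed untreated and after 1 µM 5-aza-dC (5-aza-2'-deoxycytidine) for 72 h. The 4 conditions, untreated controls, treated controls, untreated knockdowns and treated knockdowns, thus hold n = 2 clones each, with 1 array per clone and treatment. Each clone grew from 1 colony, so an effect of the knockdown and a difference between single clones cannot be told apart. The limma p-values rest on the spread between the 2 clones of a condition, pooled over the 4 conditions and moderated over all tested probes. Condition was taken from the array titles, because a separate treatment field gives mock for all control arrays and the drug for all knockdown arrays, including those titled as untreated.

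DNMT1 is the maintenance methyltransferase, which copies the methylation of CpG sites onto the new strand after replication, and UHRF1 brings it to hemimethylated DNA. DNMT3A and DNMT3B set methylation at new sites, DNMT3L is a partner of both with no catalytic activity of its own, and UHRF2 is a paralog of UHRF1. 5-aza-dC is a cytidine analog that is built into DNA during replication and traps the methyltransferase proteins there, and TET1 oxidizes 5-methylcytosine. The arrays show the mRNA of the members and not their protein or activity.

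The arrays are given here as log2 signal, the background-subtracted intensity of a probe scaled to the 75th percentile of its array. That percentile was 395.5 to 623.7 before scaling, between 29490 and 34276 spots of an array passed as well above background, and no spot was saturated. CONT1 and CONT2 after 5-aza-dC were hybridized on a slide of their own, and the other 6 arrays shared 1 slide. Before scaling, the mean log2 intensities of all 10 synthetic spike-in transcripts were lower on the second slide. The gap was widest for E1A_r60_a20 (8.36 against 9.36) and E1A_r60_a135 (6.90 against 7.91). For E1A_r60_1, E1A_r60_3 and E1A_r60_a104 it was -0.04, -0.19 and -0.02, within their standard deviations on the first slide (0.05, 0.20 and 0.23). Slide and condition therefore cannot be told apart in the response of the control clones, in the treated comparison of the kinds of clone and in the difference in response, whereas the response of the knockdown clones and the untreated comparison lie within the first slide. The *TET1* probe read 9.70 and 9.75 in untreated CONT1 and CONT2 and 8.65 and 9.41 in untreated TET1-KD1 and TET1-KD2. After 5-aza-dC it read 9.64 in both control clones and 8.99 and 9.48 in TET1-KD1 and TET1-KD2. *TET1* was lower on all knockdown arrays than on all control arrays, but the difference did not pass the test (log2 -0.69 untreated, adjusted p = 0.610, limma). Of 6 colorectal epithelium markers, 6 were well above background on all 8 arrays. Of 7 markers of other cell types, 3 to 5 were above background on a given array, and their summed signal was 1432 to 1516 in untreated controls, 2902 to 3789 in treated controls, 975 to 1012 in untreated knockdowns and 1828 to 2697 in treated knockdowns. Among them *COL1A2* was above background on 0 arrays, *CD3E* on 1 and *PECAM1* on 3. *VWF* was above background on 7 arrays, and *DES*, *COL1A1* and *PTPRC* on all 8. No marker had a log2 signal of 0. Every array is of a clone of HCT116, so these signals are not read as a share of other cell types. In bulk RNA, fewer cells that express a marker and less RNA per cell cannot be told apart. The part of these markers in the results below was not tested.

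Every probe on this platform is a 60-base oligonucleotide, and the base composition of the probes matters for what follows. The first 30 bases of the probes that carry the main results are shown 5′ to 3′ as the array files give them, for *DNMT1*, for the 3 probes of *DNMT3A* and for the 2 probes of *UHRF1*.
DNMT1, A_33_P3329187: agactttatgtagtttttatatgttgtaat
DNMT3A, A_33_P3272330: tgtgtaagggacatgggggcaaactgaggt
DNMT3A, A_23_P154500: agggagacgagaacaccacacaagacattt
DNMT3A, A_23_P420373: caaaaagtcttccttccaagcgtgtatgat
UHRF1, A_23_P208880: tgtattagggaagaatgagacaattttgtg
UHRF1, A_33_P3379454: ggcttaacttaaacaggtagtgtttcctcc
Over all of its bases the *DNMT1* probe held 23.3% G and C. The 3 *DNMT3A* probes held 41.7%, 45% and 35% in the order shown, and the 2 *UHRF1* probes 35% and 38.3%. The *DNMT1* sequence is thus the one most rich in A and T among those shown, and no base of it is marked because the probe as a whole is what was measured.

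Of the 6 genes, 5 had at least 1 probe that could be tested, with 9 tested probes in all. *DNMT3L* and a second *DNMT3B* probe were too dim. A gene was counted by its brightest tested probe at an adjusted p below 0.05 in limma, where all 27287 tested probes entered the fit and the adjustment. In the control clones 5-aza-dC raised 2 of the 5 genes, *DNMT1* and *DNMT3A*, against 19.2% of all tested probes called higher and 41.8% called in either direction. In the knockdown clones 1 gene was called, *UHRF1*, which was lower after the drug, against 2.9% of all probes called lower and 11.8% in either direction. Counted by probe, 3 of the 9 were called higher in control clones, and 1 higher and 1 lower in knockdown clones. The probe called higher in knockdown clones was *DNMT3A* A_23_P420373, which is not the brightest of its gene. Between treated clones 3 of the 9 probes were called lower in the knockdowns. Between untreated knockdown and control clones 0 of the 5 genes were called, as were 0.0147% of all probes (0.00733% higher and 0.00733% lower), and 0 had an unadjusted p below 0.05, by limma or by the methods' t-test. This holds for the brightest probes, whereas *DNMT3A* probe A_23_P420373 had an unadjusted limma p of 0.00879 there and was not called. Between the treated clones *DNMT1* and *DNMT3A* were lower in the knockdowns, 2 genes against 18.8% of all probes (11.9% higher, 6.91% lower). The difference in response between the kinds of clone was called for *DNMT1* alone, 1 gene against 5.58% of all probes (4.02% with a higher and 1.56% with a lower response in knockdown clones). With 5 genes these counts are too small to set the members apart from all probes. The median log2 change of the 5 genes was 0.48 in control clones and 0.08 in knockdown clones, beside -0.08 and -0.07 over all tested probes.

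**Figure D1:**
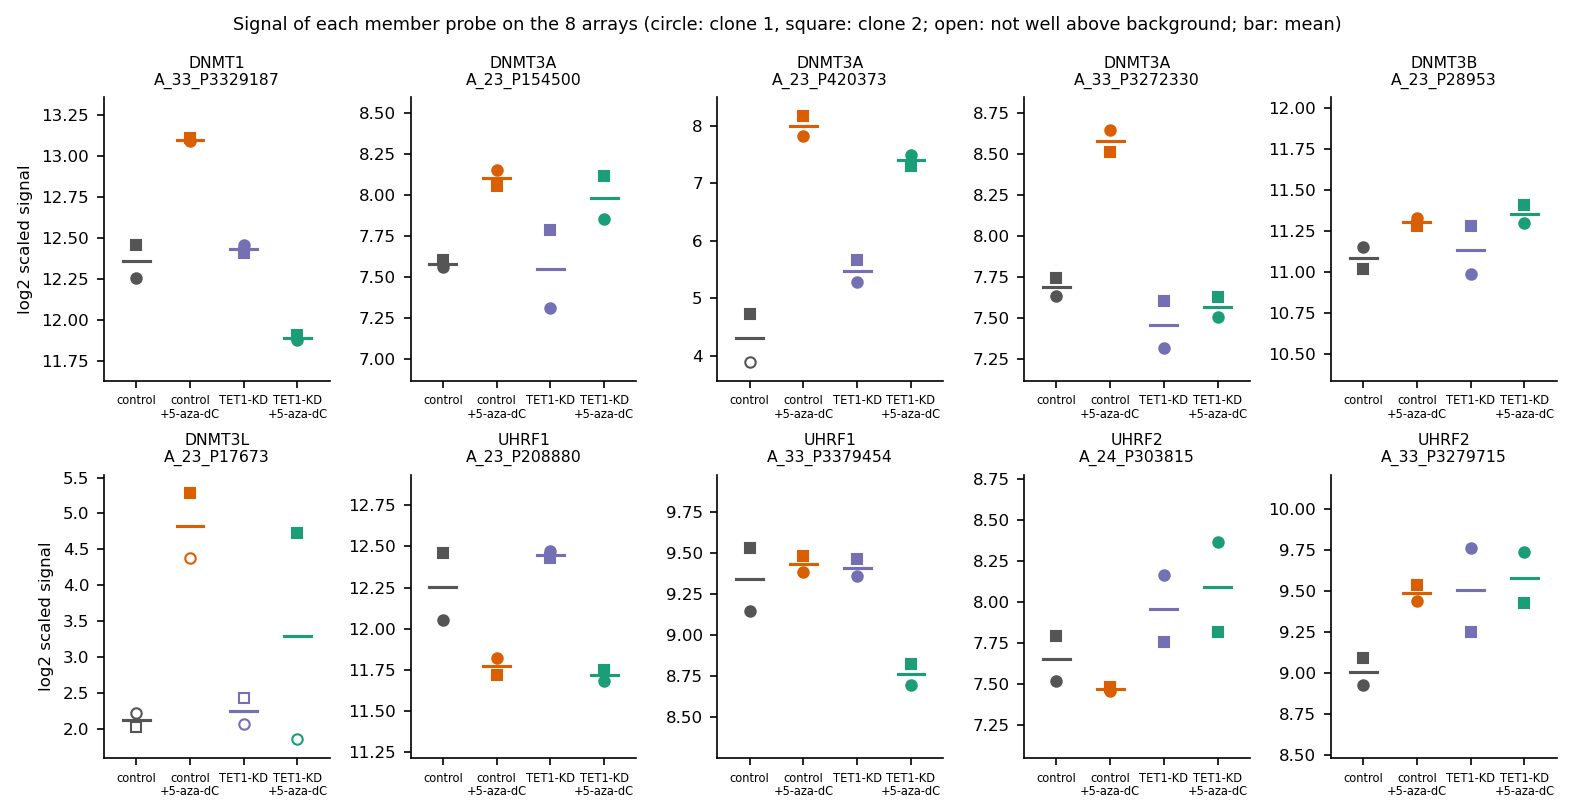
Log2 scaled signal (vertical axes, each with its own range) of 10 member probes in the 4 conditions, 1 point per array, with circles for clone 1, squares for clone 2, open points for arrays where the probe was not well above background and bars for the mean of 2 clones. DNMT1 was near 13.1 on both treated control arrays and near 11.9 on both treated knockdown arrays. DNMT3A probe A_23_P420373 went from 3.89 (not well above background) and 4.73 to 7.82 and 8.17 in the control clones.

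*DNMT1* was read by 1 probe on chromosome 19 from 10244023 to 10244082 (hg19, minus strand), well above background on all 8 arrays. Its log2 signal was 12.26 and 12.46 in untreated CONT1 and CONT2, and 13.09 and 13.11 after 5-aza-dC. In TET1-KD1 and TET1-KD2 it was 12.46 and 12.41 untreated, and 11.88 and 11.91 after 5-aza-dC. Both treated control arrays lay above, and both treated knockdown arrays below, all 4 untreated arrays. *DNMT1* rose 1.66-fold in the control clones (log2 change 0.74, standard error 0.14, 95% interval 0.39 to 1.08, adjusted p = 0.00898, limma, n = 2 clones per condition). In the knockdown clones the log2 change was -0.54 (95% interval -0.88 to -0.19), which did not pass the test (adjusted p = 0.0643). By clone, CONT1 and CONT2 changed by 0.82 and 0.65, and TET1-KD1 and TET1-KD2 by -0.57 and -0.50, so that the 2 clones of a kind moved together and the 2 kinds in opposite directions. The difference in response was -1.27 on the log2 scale (standard error 0.20, 95% interval -1.76 to -0.78, adjusted p = 0.0260, limma). Treated knockdown clones had 2.30-fold less *DNMT1* signal than treated control clones (log2 -1.20, 95% interval -1.55 to -0.85, adjusted p = 0.00477), whereas the untreated clones differed by 0.07 (adjusted p = 0.899). Without the untreated CONT1 array the change in control clones was 0.64 with an adjusted p of 0.0701, and leaving out any single array moved the adjusted p of the difference in response to between 0.0551 and 0.123.

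The response of *DNMT1* was set beside that of other probes with few G and C bases, since the responses of the control clones followed base composition across the whole array. Among the 180 tested probes with at most 25% G and C, the median log2 change was 0.39 in control clones and -0.21 in knockdown clones. Among the 4283 probes over 55% these medians were -0.58 and -0.05. In the lowest group 32.2% of probes were called higher in the control clones and 5% lower, and in the highest group 8.85% were called higher and 42.3% lower. Of the 179 other probes in the lowest group, 62 had a change in control clones at least as high as that of *DNMT1*, and 42 had a change in knockdown clones at least as low. When each array's trend on base composition was removed, *DNMT1* was no longer called in the control clones (log2 0.13, adjusted p = 0.514), it was called lower in the knockdown clones (log2 -0.60, adjusted p = 0.0380), and its difference in response was -0.73 (adjusted p = 0.123). This correction moved the median of all probes to -0.23 in control and -0.30 in knockdown clones. Relative to those medians, *DNMT1* stood at 0.36 and -0.30, compared with 0.82 and -0.47 before the correction. Relative to the median, *DNMT1* was above 0 in control clones and below 0 in knockdown clones on the 75th percentile, normexp, quantile, spike-in and GC-corrected scales, and its size in control clones was smallest with the GC trend removed.

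**Figure D2:**
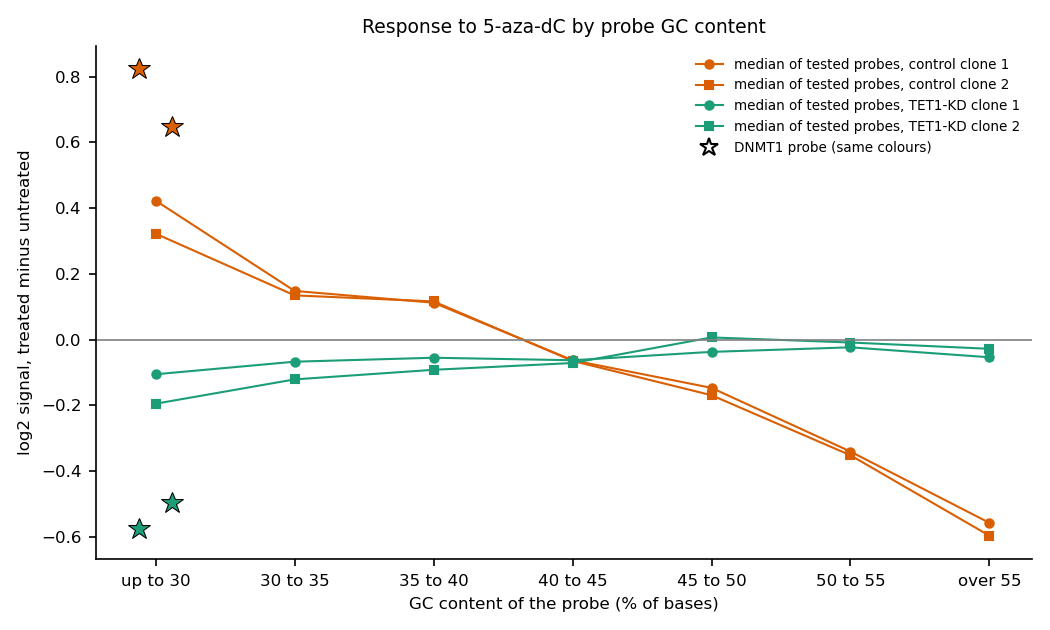
Median log2 change with 5-aza-dC (vertical axis) of all tested probes in 7 bins of probe GC content (horizontal axis, % of bases), 1 line per clone, with the DNMT1 probe as stars. The control lines ran from 0.42 and 0.32 in the lowest bin to -0.56 and -0.60 in the highest, the knockdown lines stayed between -0.19 and 0.01, and the DNMT1 stars lay above the former and below the latter.

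*UHRF1*, the reader of hemimethylated DNA that recruits DNMT1, was the only member called lower after the drug, by its brightest probe and in the knockdown clones alone. Its brightest probe (chromosome 19, 4962065 to 4962124, hg19, plus strand) read 12.05 and 12.46 in untreated CONT1 and CONT2 and 11.82 and 11.72 after treatment. In TET1-KD1 and TET1-KD2 it read 12.47 and 12.43 untreated and 11.68 and 11.75 after treatment. All 4 treated arrays lay below all 4 untreated arrays. *UHRF1* fell 1.67-fold in the knockdown clones (log2 -0.74, standard error 0.18, 95% interval -1.17 to -0.30, adjusted p = 0.0488, limma). In the control clones the change was -0.48 (adjusted p = 0.0726), with -0.23 in CONT1 and -0.74 in CONT2. The call in the knockdown clones sat at the threshold: with the clone as a block the adjusted p was 0.0647, and leaving out any of the 8 arrays gave 0.0579 to 0.154. The responses of the 2 kinds of clone differed by -0.25 (adjusted p = 0.582), and treated knockdown and control clones by -0.05 (adjusted p = 0.855). With the GC trend removed, the change in control clones was -0.94 (adjusted p = 0.00925), which made a call there as well.

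The second *UHRF1* probe lies closer to the start of the gene by coordinates (chromosome 19, 4960895 to 4960954) and did not behave in the same way in the control clones. It read 9.15 and 9.53 in untreated and 9.38 and 9.48 in treated control clones, and 9.36 and 9.46 in untreated and 8.70 and 8.82 in treated knockdown clones. The control arrays overlapped between treatments, and the knockdown arrays did not. The log2 change was 0.09 in control clones (adjusted p = 0.707) and -0.65 in knockdown clones (adjusted p = 0.0693). In the treated comparison this probe was called, 1.59-fold lower in the knockdowns (log2 -0.67, adjusted p = 0.0476), and leaving out any 1 array ended that call (adjusted p 0.0647 to 0.160). The 2 *UHRF1* probes thus gave like changes in the knockdown clones and unlike changes in the control clones, whose treated arrays were on the other slide.

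*UHRF2* is a paralog of *UHRF1* with the same kind of domains, and its function in maintenance methylation is less clear. Its brightest probe (chromosome 9, 6421082 to 6421141, hg19) read 8.93 and 9.09 in untreated control clones, 9.44 and 9.54 in treated control clones, 9.77 and 9.25 in untreated TET1-KD1 and TET1-KD2, and 9.74 and 9.43 after treatment. The untreated control arrays were the lowest, and the other 3 conditions overlapped. The log2 change in control clones was 0.48 (95% interval -0.06 to 1.01, adjusted p = 0.130), and with the clone as a block the adjusted p was 0.0412. In knockdown clones it was 0.08 (adjusted p = 0.866). The second probe (chromosome 9, 6506080 to 6506139) read 7.52 and 7.79 in untreated and 7.46 and 7.48 in treated control clones, and 8.16 and 7.76 in untreated and 8.37 and 7.82 in treated TET1-KD1 and TET1-KD2. Its changes of -0.18 and 0.13 were small beside the gap between the 2 knockdown clones. None of the 5 comparisons called either *UHRF2* probe, and the 2 probes differed in sign in the control clones.

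*DNMT3A*, 1 of the 2 de novo methyltransferases, was read by 3 probes that did not respond alike. The brightest (chromosome 2, 25457095 to 25457154, hg19, minus strand) read 7.64 and 7.74 in untreated CONT1 and CONT2 and 8.64 and 8.51 after 5-aza-dC. It read 7.32 and 7.60 in untreated TET1-KD1 and TET1-KD2 and 7.51 and 7.63 after 5-aza-dC. The treated control arrays stood above the other 6, which lay close together. This probe rose 1.85-fold in the control clones (log2 0.89, standard error 0.16, 95% interval 0.49 to 1.29, adjusted p = 0.00750, limma), and its change in knockdown clones was 0.11 (adjusted p = 0.729). In treated knockdown clones it was 2.01-fold below treated controls (log2 -1.01, adjusted p = 0.0116). The difference in response was -0.78 and did not pass the test (adjusted p = 0.107), so the responses are not shown to differ. Without the untreated CONT1 array the adjusted p in control clones was 0.0545, and the treated comparison lost its call without treated CONT1 (0.0528) or treated TET1-KD1 (0.0583).

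The second *DNMT3A* probe lies 3′ of the first on the minus strand (chromosome 2, 25456415 to 25456474) and belongs to the same annotated transcript. It read 7.56 and 7.60 in untreated and 8.15 and 8.06 in treated control clones, and 7.31 and 7.79 in untreated and 7.85 and 8.12 in treated TET1-KD1 and TET1-KD2. Here the treated arrays of both kinds of clone were higher than their own untreated arrays by similar amounts. The log2 change was 0.52 in control clones (adjusted p = 0.0836, and 0.0352 with the clone as a block) and 0.44 in knockdown clones (adjusted p = 0.229), and the responses differed by -0.09 (adjusted p = 0.882). For the same transcript, the kinds of clone therefore differed at 1 probe of *DNMT3A* after treatment and not at the other.

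The third *DNMT3A* probe (chromosome 2, 25504394 to 25504453) is assigned in the files to a different *DNMT3A* transcript from the other probes, and it was dim in untreated clones. It read 3.89 and 4.73 in untreated CONT1 and CONT2, where only the latter was above background, and 7.82 and 8.17 after 5-aza-dC. In TET1-KD1 and TET1-KD2 it read 5.29 and 5.67 untreated and 7.49 and 7.31 after 5-aza-dC. All 4 treated arrays lay above all 4 untreated arrays. The signal rose in control clones (log2 3.68 as measured, standard error 0.31, 95% interval 2.93 to 4.44, adjusted p = 0.000462, limma), where no exact fold is given because 1 of the 2 untreated arrays was below background. It rose 3.78-fold in knockdown clones (log2 1.92, 95% interval 1.16 to 2.67, adjusted p = 0.0124). The difference in response was -1.77 (adjusted p = 0.0750), and the untreated knockdown clones stood 1.17 above the untreated controls (95% interval 0.41 to 1.93, adjusted p = 0.488). Because the untreated values are dim, the size depended on the background: with normexp correction the changes were 1.93 and 1.16. In the knockdown clones the call was lost without untreated TET1-KD1 (adjusted p = 0.0628), treated TET1-KD1 (0.0516) or treated TET1-KD2 (0.0580).

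**Figure D3:**
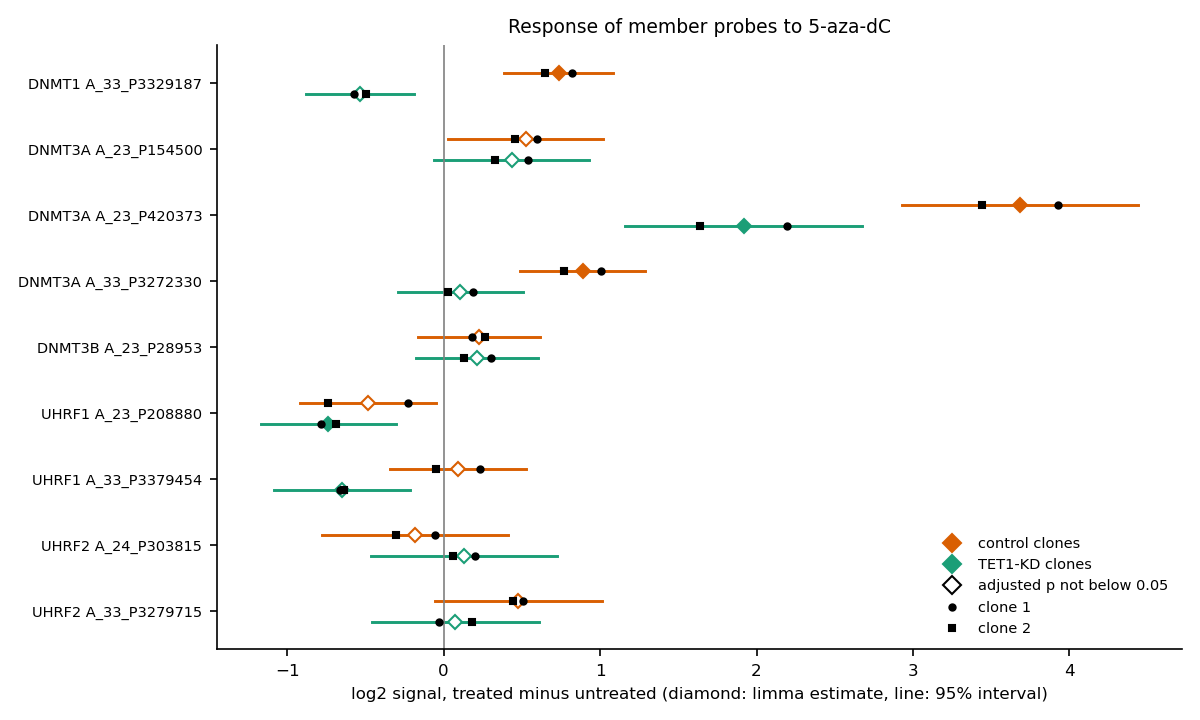
Log2 change with 5-aza-dC (horizontal axis, treated minus untreated) of the 9 tested member probes, with the limma estimate as a diamond (filled where the adjusted p is below 0.05), its 95% interval as a line and the change of each clone as a black point. The intervals of DNMT1 lie on opposite sides of 0 in the 2 kinds of clone, and DNMT3A A_23_P420373, below background in untreated CONT1, has measured changes of 3.68 and 1.92.

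*DNMT3B*, the other de novo methyltransferase, stayed within a narrow range. Its brighter probe (chromosome 20, 31397064 to 31397123, hg19, plus strand) read 11.15 and 11.02 in untreated and 11.33 and 11.28 in treated control clones, and 10.99 and 11.28 in untreated and 11.30 and 11.41 in treated TET1-KD1 and TET1-KD2. Treated and untreated arrays were separate in each kind of clone, but the gaps were small. The log2 changes were 0.22 in control clones (95% interval -0.17 to 0.61, adjusted p = 0.303) and 0.22 in knockdown clones (95% interval -0.17 to 0.61, adjusted p = 0.443), and the responses differed by -0.01 (95% interval -0.56 to 0.54, adjusted p = 0.988). The other *DNMT3B* probe was above background on 0 of 8 arrays, with log2 signals of 1.78 to 2.38. Of all tested members *DNMT3B* had the smallest difference in response.

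*DNMT3L* encodes the catalytically inactive partner that stimulates DNMT3A and DNMT3B and is known mainly from germ cells and early embryos. Its probe (chromosome 21, 45666270 to 45666329, hg19, minus strand) was well above background on 2 arrays only, treated CONT2 and treated TET1-KD2, and was not tested. It read 2.23 and 2.03 in untreated and 4.38 and 5.28 in treated control clones, and 2.08 and 2.43 in untreated and 1.86 and 4.73 in treated TET1-KD1 and TET1-KD2. The signal in treated control clones was at least 1.43-fold higher than the level at which untreated controls could have been detected, with 1 of the 2 treated arrays above background. No fold is given for the knockdown clones, because the mean of their treated arrays was below that level. TET1-KD1 and TET1-KD2 thus stood apart at *DNMT3L* after treatment.

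The brightest probes of *DNMT1*, *UHRF1* and *DNMT3A*, each taken relative to the median change of all tested probes, had the same sign on all 5 scales within each kind of clone. In the control clones *DNMT1* ranged from 0.36 to 0.86, *DNMT3A* from 0.64 to 1.04 and *UHRF1* from -0.71 to -0.30. In the knockdown clones *DNMT1* ranged from -0.50 to -0.24 and *UHRF1* from -0.69 to -0.45. *DNMT3A* was 0.05 to 0.18 there, near the median of all probes on every scale.

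**Figure D4:**
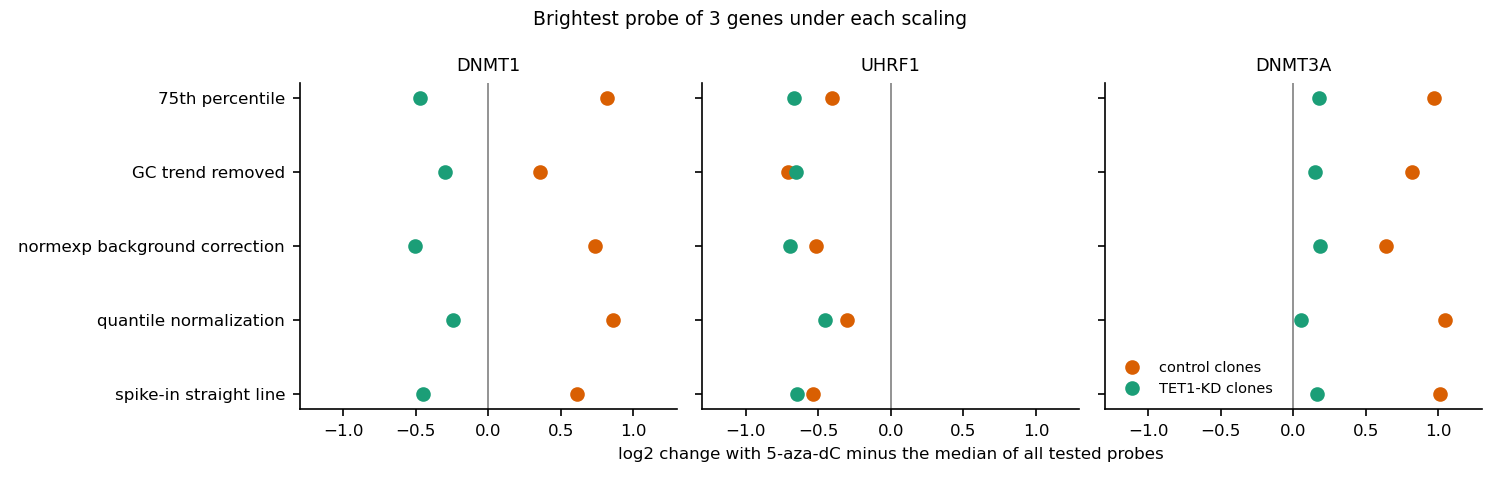
Log2 change with 5-aza-dC of the brightest probe of DNMT1, UHRF1 and DNMT3A minus the median change of all tested probes (horizontal axes) under 5 ways of scaling the arrays, for control and knockdown clones. DNMT1 in control clones went from 0.82 on the 75th percentile scale to 0.36 with the GC trend removed, and UHRF1 in control clones from -0.40 to -0.71.

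Genes that work with the members in maintenance methylation were mostly lower after 5-aza-dC in the control clones. Of 13 such genes 12 were tested, and 9 fell and 1 rose in the control clones, beside 22.6% of all probes called lower and 19.2% called higher. In the knockdown clones 4 fell and 0 rose, beside 2.9% and 8.91%. Their median log2 change was -0.75 and -0.61, compared with -0.08 and -0.07 over all probes. *USP7*, a deubiquitinase that acts on DNMT1 and UHRF1, read 7.14 and 7.40 in untreated control clones and 5.62 and 5.11 after treatment (log2 -1.91, adjusted p = 0.00253, limma). In knockdown clones its change was -0.81 (adjusted p = 0.105), and treated knockdown clones were 1.42 above treated controls (adjusted p = 0.0166). That treated call was lost under 6 of the alternatives. The difference in response of *USP7* was 1.10 and did not pass the test (adjusted p = 0.137, limma). *HELLS*, a chromatin remodeler needed for methylation of repeats, fell by 1.23 on the log2 scale in control clones, and its activator *CDCA7* fell by 1.20 there and by 1.26 in knockdown clones (adjusted p = 0.00298 and 0.00601). The paralog *CDCA7L* fell by 0.76 in knockdown clones, a call lost under 8 of the alternatives. The gene that rose was *HDAC2*, a histone deacetylase (log2 0.58, adjusted p = 0.0227), and it is named after its value was seen. In the untreated comparison limma called 0 of the 12, beside 0.0147% of all probes. At an unadjusted limma p below 0.05 was 1 of the 12, beside 2253 of all 27287 tested probes.

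Replication genes that were called were lower after the drug. They were listed because *DNMT1* and *UHRF1* are known as genes of S phase. Of 25 tested, 11 fell and 0 rose in control clones, and 7 fell and 0 rose in knockdown clones, beside 22.6% and 2.9% of all probes called lower. The other 14 and 18 genes were not called, and *CCNE1*, *CCNA2* and *MCM4*, named after their values were seen, had changes of 0.26, 0.20 and 0.07 in control clones. The medians were -0.54 and -0.61. *FEN1*, which processes Okazaki fragments, fell by 1.49 in control clones, *RRM1*, a subunit of ribonucleotide reductase, fell by 1.35, and *PRIM1*, a subunit of primase, fell by 0.99. In knockdown clones *CDT1*, which loads the MCM helicase, fell by 0.89 and *PRIM1* fell by 0.88. These calls were lost under 13 and 10 of the alternatives. *E2F2*, a transcription factor of S phase genes, had a change of -0.95 there that did not pass the test (adjusted p = 0.0666). Beside these, the log2 change of *DNMT1* was 0.74 in control clones and -0.54 in knockdown clones. The brightest *UHRF1* probe had -0.48 in control clones, which did not pass the test, and -0.74 in knockdown clones. The second *UHRF1* probe had 0.09 and -0.65. With the GC trend removed, *DNMT1* had 0.13 in control clones, which was not called, and -0.60 in knockdown clones, which was called. The brightest *UHRF1* probe then had -0.94 in control clones, which was called. The values given for the replication genes are without that correction. A difference in response was called by limma in 0 of the 25 replication genes, beside 5.58% of all probes. At an unadjusted limma p below 0.05 were 2 of the 25, beside 6742 of all 27287 tested probes.

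**Figure D5:**
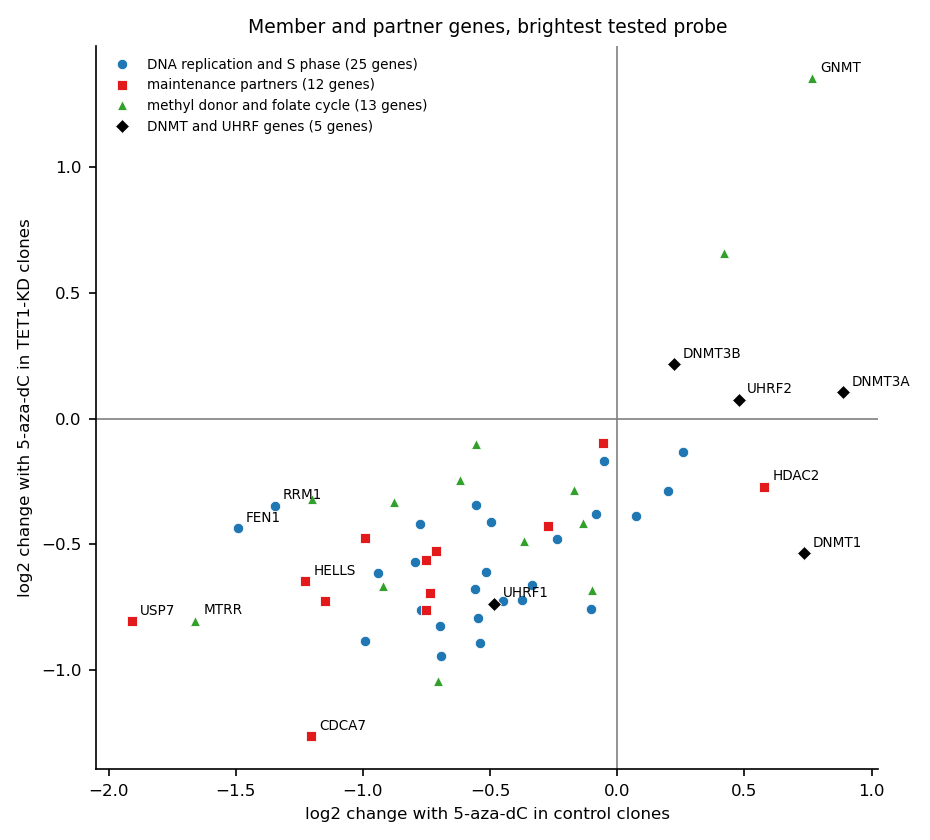
Log2 change with 5-aza-dC in control clones (horizontal axis) against that in knockdown clones (vertical axis) for the brightest tested probe of the members (black diamonds), maintenance partners, replication genes and methyl donor genes. Most partner and replication genes lie at the lower left, where UHRF1 also lies, and DNMT1 lies at the lower right with 0.74 and -0.54.

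The supply of methyl groups and the histone side of silencing were taken as further lists. Of 13 tested genes of the methyl donor and folate cycle, 5 fell and 0 rose in control clones, and 2 fell and 0 rose in knockdown clones, beside 22.6% and 2.9% of all probes called lower, with medians of -0.55 and -0.33. *MTRR*, which reactivates methionine synthase, fell by 1.66 in control clones, and *SHMT1* and *MTHFD1*, enzymes of the folate cycle, fell by 1.20 and by 0.92. *MAT2A*, which makes the methyl donor S-adenosylmethionine, fell by 1.05 in knockdown clones (adjusted p = 0.0376, limma), a call lost under 14 of the alternatives. The change of *MTRR* in knockdown clones was -0.80 (adjusted p = 0.0663). *GNMT*, which consumes the methyl donor, read 1.98 and 3.93 in untreated and 4.21 and 4.41 in treated knockdown clones, and it was above background on the treated arrays alone and not called. Of 16 tested histone lysine methylation and heterochromatin genes, 4 rose and 4 fell in control clones, near the 19.2% and 22.6% of all probes called higher and lower. In knockdown clones 1 rose and 3 fell, beside 8.91% and 2.9% of all probes. The gene that rose there was *ZFP57*, which is also 1 of the 4 in control clones. It was below background without the drug and could enter the test only through treated arrays, so its calls say nothing about the list. *SUV39H1*, a histone H3 lysine 9 methyltransferase, fell by 2.01 in control and by 1.34 in knockdown clones (adjusted p = 0.000449 and 0.00425). *CBX5*, which encodes the heterochromatin protein HP1 alpha, fell by 1.18 in control clones, a call lost under 5 of the alternatives. Its change in knockdown clones was -0.92 (adjusted p = 0.0910, limma). *ZFP57*, a zinc finger protein that protects imprinted methylation, was at least 26.6-fold higher after treatment in control clones and at least 22.1-fold higher in knockdown clones, from levels below background.

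As a reference for the drug, 11 genes known to be silenced by methylation were listed. Of the 10 that were tested, 9 in control clones and 10 in knockdown clones were below background without the drug. Such genes could enter the test only through arrays on which they were high, so the number called says nothing about the list, and *SFRP2* did not enter it. The values of the genes with the widest change are given as a description. *MAEL*, *DDX43* and *DAZL*, germ line genes, were at least 107-fold, 60.5-fold and 36.4-fold higher in treated control clones and at least 35.7-fold, 58.1-fold and 40.1-fold higher in treated knockdown clones. In the difference in response limma called 0 of the 10, beside 5.58% of all probes. At an unadjusted limma p below 0.05 was 1 of the 10, beside 6742 of all 27287 tested probes. These counts say nothing about the list either, because nearly all of the untreated values that enter the difference were below background. Of the 7 markers of other cell types 5 entered the test. All 5 were called higher in control clones after the drug, as was 1 in TET1 knockdown clones, beside 19.2% and 8.91% of all probes. In untreated control clones 1 of the 5 was below background, and the treated control arrays were on the other slide. This count is given as a description. Besides *TET1*, *TET2* was tested and had changes of 0.23 and 0.21 (adjusted p = 0.527 and 0.661).

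The promoters of the members were searched for TTTNNCGC on both strands, a form of the site of E2F transcription factors, because the members and the replication genes were set side by side above. RefSeq windows of 250 bases before to 50 bases after the start (GRCh38.p14) were matched for 5 of the 6 members. The motif was found in 2 of these 5 genes, in 12 of 21 replication genes (57.1%) and in 5 of 12 maintenance partners (41.7%), and in 8.19% of all 27167 genes or 6.85% of all 34943 windows. It was present for *DNMT1* and for *UHRF1*, in 2 of its 3 windows, and these letters were not in the windows of *DNMT3A*, *DNMT3B* or *UHRF2*. For *DNMT3B* only the window at chr20:32779602-32779901 was available, and other start sites of that gene were not searched. Its motif and CpG values cover that window alone. The 30 bases around each match are shown on the strand of the gene, with the match in capitals.
DNMT1, chr19:10194948-10194977 (minus strand): tcgcccctccccatcggtttccGCGCGAAA
UHRF1, chr19:4909378-4909407 (plus strand): cccccaccctcTTTCTCGCttcccgccact
UHRF1, chr19:4909471-4909500 (plus strand): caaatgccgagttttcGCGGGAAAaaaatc
UHRF1, chr19:4909973-4910002 (plus strand): cccgagcccgaTTTCGCGCgccctgagttc
The match in *DNMT1* and the second in *UHRF1* read on the opposite strand, and the first bases of the 4 matches lie at -2, -112, -14 and -160 from their starts. A window held 30 CpG sites for *DNMT1*, 36, 40 and 46 for *UHRF1*, 18 to 46 for *DNMT3A*, 26 for *UHRF2* and 3 for *DNMT3B*, beside a median of 14 over all windows. A match of letters is a description of the sequence and says nothing on whether a factor was bound.

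Over the 8 arrays the brightest probes of *DNMT1* and *DNMT3A* had a Pearson correlation of 0.835, and those of *DNMT3B* and *UHRF1* of -0.772, as a description of n = 8 arrays that share clones and slides. The genes most like *DNMT1* among 13726 compared were *UPF1* (0.993), *RYK* (0.988) and *DDB1* (0.984). Those most like *DNMT3A* were *ATP8* (0.993), *RPS27* (0.992) and *ASPRV1* (0.990). For *UHRF1* they were *ADPGK* (0.989), *HSPD1* (0.977) and *TEN1* (0.972), and for *UHRF2* *WBP4*, *USP53* and *CNIH4* (0.987 each). For *DNMT3B* they were *TWIST1* (0.953), *TRAF1* (0.952) and *MCF2L-AS1* (0.950). With 8 arrays in 4 conditions, such values arise from few distinct levels.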

How the data were processed

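Total RNA of HCT116 clones was labeled with Cy3 and hybridized to SurePrint G3 Human GE 8x60K arrays, 8 arrays on 2 slides. For every array the authors deposited the intensity of each spot as written by Feature Extraction 10.7.3.1 (10.7 per the labels), with the local background subtracted and no scaling between arrays, and a value table of the series that holds the same intensities rounded. The methods name GeneSpring GX and t tests with Benjamini-Hochberg correction for probe selection and give no normalization.

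Here each array's processed intensity was scaled to a common 75th percentile (the geometric mean of all 8). Values under 1 were set to 1 before log2. Outlier-flagged spots (229 to 329 per array) were left out and repeated probes averaged, which gave 50543 probes with a value. A probe was tested if it was well above background (at least 0.5 of its spots) on both arrays of 1 or more conditions. This left 27287 probes, and a gene was represented by its brightest tested probe. limma 3.58.1 in R 4.3.3 fitted 4 group means to the 8 arrays, with contrasts for 5-aza-dC in each kind of clone, for knockdown versus control without and with the drug and for the difference in response, Benjamini-Hochberg adjusted over all tested probes. The functions were tested on simulated data. With 2 clones per group an exact permutation test cannot go below p = 0.333, and the number of arrays limits the precision. Where a probe was below background on all arrays of a group, the fold is a lower bound against the lowest signal well above background on those arrays.

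Untreated and treated arrays of the same number come from the same clone by their titles, and deviations from the group means correlated with r = 0.198 in control and 0.476 in knockdown clones. The alternatives were normexp background correction (offset 50), quantile normalization, an offset of 50 before log2, other filters on dim and flagged spots, the first slide alone, the compared groups alone, the clone as a block, removal of a loess trend on probe GC content (span 0.5), a straight line through the spike-ins, the methods' t-test, the deposited value table, the mean over probes, a minimum of 2-fold and leaving out each array. Named were all member probes, *TET1*, the 3 genes of each list with the widest change in each kind of clone, and the 3 genes most correlated with each member. The members and lists were chosen with earlier results of these data known. Probe positions (hg19) are those of the files, and exons or untranslated regions were not assigned. Promoter sequences are from RefSeq (GRCh38.p14). Plots were drawn with matplotlib 3.10.9.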

Additional observations from a re-analysis of the deposited data

Results flagged for a closer look

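Of 31 genes and probes examined for a difference in response between the kinds of clone, 3 had clones that moved in opposite directions. For *DNMT1* the log2 difference was -1.27, with a standard error of 0.20 and an adjusted p of 0.0260 in limma, and with changes of 0.82 and 0.65 in CONT1 and CONT2 and of -0.57 and -0.50 in TET1-KD1 and TET1-KD2. For *UHRF2* probe A_24_P303815 it was 0.31 (standard error 0.35, adjusted p = 0.626), with changes of -0.06 and -0.31 in the control clones and of 0.20 and 0.06 in the knockdown clones. For *TET1* it was 0.29 (standard error 0.41, adjusted p = 0.707), with changes of -0.07 and -0.10 in the control clones and of 0.33 and 0.07 in the knockdown clones. The last 2 did not pass the test. In each case the arrays of treated CONT1 and CONT2 come from the other slide, and slide and condition cannot be told apart.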

How the results depend on the processing

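The counts of members called that differed between alternatives were these. In the knockdown clones, where 1 member was called, the count was 0 with quantile normalization, without a filter on dim probes, with the filter on all 8 arrays, with the first slide alone, with the compared groups alone, with the spike-in line, with the methods' t-test after adjustment and with a minimum of 2-fold, and 0 to 0 when single arrays were left out. It was 2 with normexp, the offset of 50, the GC trend removed (also with the block), the mean over probes and the methods' t-test unadjusted. In the control clones the 2 calls became 0 with the adjusted t-test and with the 2-fold minimum, and 0 to 2 without single arrays, with 0 only without untreated CONT1. They became 3 with the offset of 50, where *UHRF1* joined, and with the unadjusted t-test, where *UHRF2* joined. With the GC trend removed (also with the block) 2 were called, of which *DNMT1* was lost and *UHRF1* gained. In the treated comparison the 2 calls became 1 with the compared groups alone and with the mean over probes, 0 with the adjusted t-test and 1 to 2 without single arrays, with 1 without treated CONT1 or treated TET1-KD1. The 1 call in the difference in response became 0 without the dim filter, with the GC trend removed (also with the block) and without any single array, 0 to 0. The untreated comparison had 0 throughout.

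With the clone as a replicate block, pairing each treated array with its own clone, the count was 0 in the knockdown clones and 3 in the control clones, where *UHRF2* joined. Beside *UHRF1*, *UHRF2* and a second *DNMT3A* probe, it changed no other call of a member probe. For the 9 member probes over all alternatives and comparisons, 917 values kept their direction and their side of the threshold, 57 lost a call, 22 gained one, 50 changed sign while not called, and no called value turned. The cause of these changes was not tested, other than that leaving out arrays leaves fewer residual degrees of freedom.

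Counts over all probes moved by more than 1.5 times as follows. In control clones (11402) they were 4163 with the adjusted t-test, 7462 with the 2-fold minimum and 6366 to 11527 without single arrays (lowest without untreated CONT2). In knockdown clones (3220) they were 1191 with the filter on all arrays, 1687 with the compared groups alone, 6069 with the GC trend removed, 8542 with the block added and 0 with the adjusted t-test (4500 unadjusted), and 1764 to 3107 without single arrays (lowest without treated TET1-KD2). In the treated comparison (5121) they were 1473 with the compared groups alone, 4 with the adjusted t-test, 3005 with the 2-fold minimum and 2081 to 4700 without single arrays (lowest without treated TET1-KD1). In the difference in response (1522) they were 829 with normexp, 715 without the dim filter, 785 with the GC trend removed, 233 with the block added, 954 with the spike-in line and 47 to 1245 without single arrays (lowest without untreated CONT1). In the untreated comparison (4) they were 0 to 34, and 1733 with the unadjusted t-test. Higher and lower calls were 5234 and 6168 in control clones, 7028 and 3384 with the spike-in line. In knockdown clones they were 2430 and 790, 2040 and 1131 with normexp, 2061 and 1259 with quantile normalization, 2156 and 1319 with the offset of 50, and 2330 and 3739 with the GC trend removed. In the treated comparison they were 3236 and 1885, 2155 and 2643 with normexp and 1845 and 2289 with the spike-in line. In the difference in response they were 1097 and 425, 433 and 396 with normexp, 462 and 323 with the GC trend removed and 424 and 530 with the spike-in line. Among the lists, maintenance partners called lower ranged from 2 to 10 in control and 0 to 9 in knockdown clones, replication genes from 2 to 17 and from 0 to 21, methyl donor genes from 2 to 7 and from 0 to 8, and histone genes from 1 to 7 and from 0 to 10. Silenced genes called higher ranged from 0 to 10 in both kinds of clone. Signals near background limit *DNMT3L*, the dim *DNMT3B* probe and the untreated values of the third *DNMT3A* probe.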
